A study of Mus musculus with 11 samples.

Results

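The expression of 10 marker genes of macrophages was followed in epididymal adipose tissue and pancreas of mice with obesity-related acute pancreatitis (OA-AP) and of control mice. The genes were taken by their symbols and fall into 3 roles. Adgre1, Cd68 and Csf1r mark macrophages in general, Cd163, Mrc1, Lyve1 and Timd4 mark resident macrophages, and Trem2, Cd9 and Gpnmb mark lipid-associated macrophages. All 10 were listed in both count tables, among 46078 genes in the adipose table and 54532 in the pancreas table.

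The series held RNA-seq libraries of adipose tissue (3 control, 3 OA-AP) and of pancreas (2 control, 3 OA-AP). All mice were wild type C57BL/6 aged 16 weeks. The study's methods give their sex as male. Controls were kept for 12 weeks on a chow diet (10 kcal% fat) and were injected with saline. OA-AP mice were kept for 12 weeks on a high-fat diet (60 kcal% fat) and were injected intraperitoneally with ethanol, 2 g/kg on each of 2 occasions separated by 1 h, and all tissue was taken 12 h after the first injection. Diet, ethanol and pancreatitis therefore differ together and cannot be told apart. The labels number the replicates without saying that each is a separate animal, so the p-values below measure the spread between these libraries.

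Tissue macrophages are phagocytes that settle in an organ, clear dying cells and debris, and depend for survival on the receptor encoded by Csf1r, which binds the cytokines CSF1 and IL-34. Resident macrophages along vessels and connective tissue carry scavenger and lectin receptors such as CD163, the mannose receptor (Mrc1) and LYVE1, and some long-lived ones carry TIM-4 (Timd4), which binds phosphatidylserine on dying cells. In obese fat, macrophages that gather around dying adipocytes and take up lipid are known for TREM2, CD9 and GPNMB. None of these genes is exclusive to macrophages: Lyve1 and Mrc1 are also used by lymphatic endothelium, and Cd9 is expressed by many cell types.

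Promoter sequences are shown for 4 of the 5 members called in adipose tissue, 3 that rose and 1 that fell, because macrophage promoters are often bound by the factor PU.1 at a short purine-rich motif. The capitals mark this motif, the PU box GAGGAA or its reverse complement TTCCTC. Each sequence is 300 bases in gene direction from RefSeq on GRCm38.p6, from 250 bases before to 50 after the start of the gene.
Cd68: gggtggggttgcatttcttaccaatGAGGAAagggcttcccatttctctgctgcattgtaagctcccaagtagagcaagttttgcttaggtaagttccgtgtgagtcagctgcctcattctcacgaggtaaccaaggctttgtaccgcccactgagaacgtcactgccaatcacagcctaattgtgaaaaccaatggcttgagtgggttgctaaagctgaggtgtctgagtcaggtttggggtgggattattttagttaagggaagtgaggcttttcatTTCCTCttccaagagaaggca
Cd163: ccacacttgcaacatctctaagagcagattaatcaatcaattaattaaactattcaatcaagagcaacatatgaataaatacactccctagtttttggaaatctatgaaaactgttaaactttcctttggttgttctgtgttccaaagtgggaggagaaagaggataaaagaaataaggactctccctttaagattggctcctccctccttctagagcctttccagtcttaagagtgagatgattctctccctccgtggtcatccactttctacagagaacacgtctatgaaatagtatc
Mrc1: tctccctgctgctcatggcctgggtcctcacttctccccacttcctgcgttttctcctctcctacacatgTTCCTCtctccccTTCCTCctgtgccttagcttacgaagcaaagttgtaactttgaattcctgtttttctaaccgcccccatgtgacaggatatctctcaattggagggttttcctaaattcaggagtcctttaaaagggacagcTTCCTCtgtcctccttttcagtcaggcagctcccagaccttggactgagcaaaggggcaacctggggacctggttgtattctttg
Timd4: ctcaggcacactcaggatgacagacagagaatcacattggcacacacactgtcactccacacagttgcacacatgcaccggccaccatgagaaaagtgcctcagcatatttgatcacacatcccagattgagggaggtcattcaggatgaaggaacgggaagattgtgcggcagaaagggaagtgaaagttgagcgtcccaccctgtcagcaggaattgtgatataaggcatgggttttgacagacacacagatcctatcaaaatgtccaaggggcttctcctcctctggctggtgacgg
The windows are chr11:69666121-69666420 (minus strand) for Cd68, chr6:124304401-124304700 (plus strand) for Cd163, chr2:14229164-14229463 (plus strand) for Mrc1 and chr11:46810549-46810848 (plus strand) for Timd4. The PU box occurred 2 times in the Cd68 window and 3 times in that of Mrc1, and its letters were not in the Cd163 and Timd4 windows. It was found in 28.1% of the 32544 promoters of this length. An AP-1 motif, TGANTCA on either strand, occurred 2 times in the Cd68 window and in none of the other windows shown, against 7.79% of all promoters. These matches describe letters, not binding. Of the 10 members, 7 were found in the promoter table, and Adgre1, Csf1r and Lyve1 were not.

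Library totals ranged from 22576100 to 27928097 counts in adipose controls, 20825177 to 21404197 in adipose OA-AP, 14380578 to 14716716 in pancreas controls and 14188832 to 17238919 in pancreas OA-AP. Levels below are in CPM, counts relative to library size, after scaling by trimmed mean of M-values (TMM) within each tissue. The tissue labels held: 8 adipocyte genes summed to 18988 CPM or more in every adipose library and to 201 CPM or less in every pancreas library. One adipose library stood apart, control 2, in which 30 acinar genes of the pancreas summed to 9629 CPM against 9.19 and 13.4 CPM in controls 3 and 1 and 10.5 to 19.6 CPM in OA-AP. Lymphocyte genes were also highest there, at 30.5 CPM against 8.23 and 10.1 CPM in controls 1 and 3. The adipose calls of the members are therefore also given without control 2, and a change of call without it is given for the other genes named.

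In adipose tissue Cd68, Cd163 and Mrc1 rose and Csf1r and Timd4 fell in OA-AP, while Adgre1, Lyve1, Trem2, Cd9 and Gpnmb did not pass the test. A call needed an adjusted p below 0.05 by edgeR's quasi-likelihood test with Benjamini-Hochberg adjustment and a fold change of 1.5 or more. All 10 members were tested, and 3 upregulated and 2 downregulated members compare with 25.1% of the 15839 tested genes called in either direction, 12.1% upregulated and 13% downregulated. The median log2 fold change of the members was −0.02 and that of all tested genes −0.01. Without control 2 the same counts were obtained, 3 upregulated and 2 downregulated, with log2 fold changes of 0.82 for Cd68, 1.00 for Cd163, 1.38 for Mrc1, −0.71 for Csf1r and −1.57 for Timd4 (adjusted p 0.0105 to 0.0421). In whole tissue, a change in the number of macrophages and a change in RNA per macrophage cannot be told apart.

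**Figure D1:**
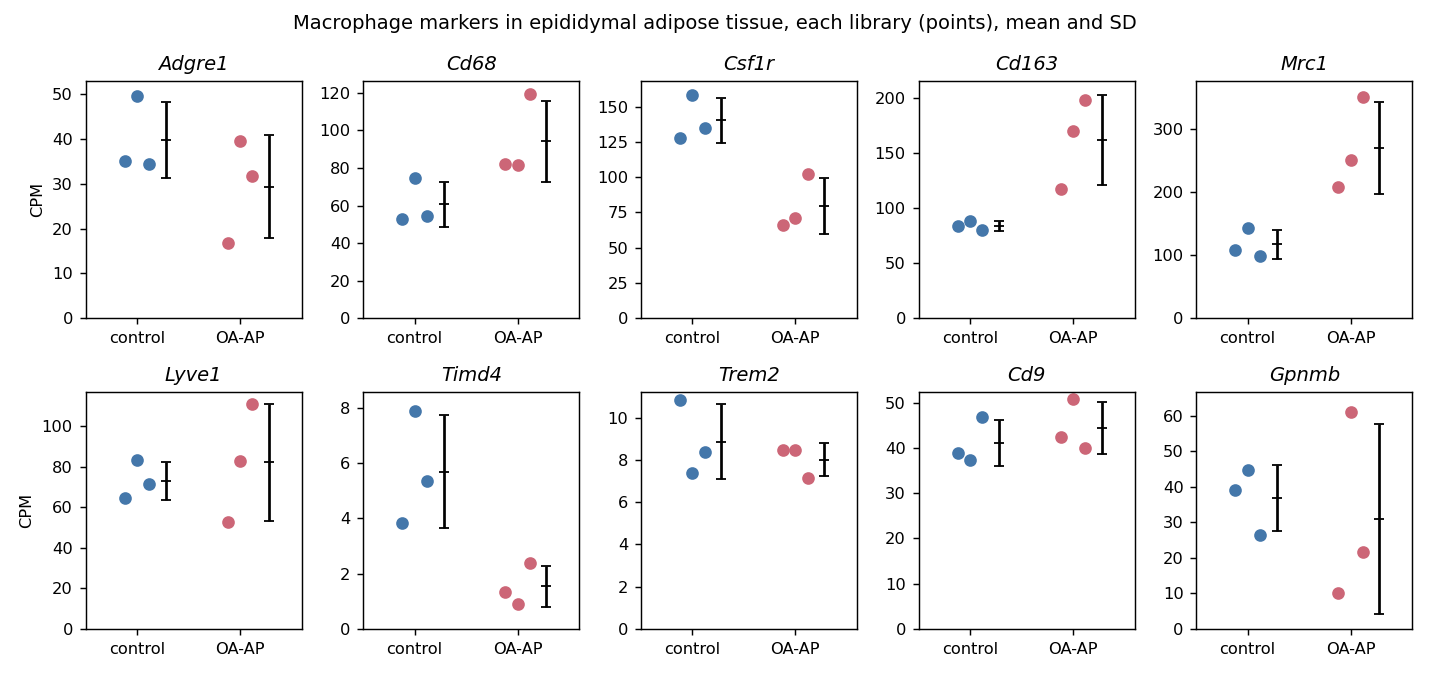
Level of each marker in the adipose libraries, in CPM on a linear axis from 0. Points are the 3 control (blue) and 3 OA-AP (red) libraries in replicate order, and the bar beside them is the mean ± SD. The groups do not overlap for the 5 called members, Cd68, Csf1r, Cd163, Mrc1 and Timd4. The share of all genes without overlap is not given here.

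The general markers diverged in adipose tissue. Cd68 (ENSMUSG00000018774, chr11:69664213-69666153, minus strand) encodes a glycoprotein of endosomes and lysosomes that is abundant in phagocytes. It measured 53.0, 74.6 and 54.6 CPM in controls 1 to 3 and 82.0, 81.7 and 119 CPM in OA-AP 1 to 3. Each OA-AP library lay above all controls, although control 2 came close to OA-AP 1 and 2. The log2 fold change was 0.64 ± 0.20 (SE, adjusted p = 0.0413), or 1.55-fold. This call was lost without control 1 (0.56, adjusted p = 0.117), without control 3 (0.58, adjusted p = 0.121), without OA-AP 3 (0.44, adjusted p = 0.105) and with library totals alone as scaling (0.48, adjusted p = 0.0929).

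Csf1r (ENSMUSG00000024621, chr18:61105572-61132149, plus strand), the receptor tyrosine kinase that macrophages need for survival, moved the other way. Its levels were 128, 158 and 135 CPM in controls and 65.9, 71.1 and 103 CPM in OA-AP, so that the highest OA-AP library stayed below the lowest control. OA-AP differed from control by −0.81 ± 0.18 on the log2 scale (adjusted p = 0.0134), 1.76-fold lower. The call was kept without each library in turn, with values from −1.03 to −0.68. Exons of Csf1r overlap those of Hmgxb3 on the opposite strand in GENCODE M21, its start or end differs between that release and the deposited table, and the strand setting of the counting is not given in the sources used here, so its level is uncertain to that extent.

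Adgre1 (ENSMUSG00000004730, chr17:57358691-57483527, plus strand) encodes F4/80, the adhesion receptor long used to stain mouse macrophages. It measured 35.1, 49.6 and 34.5 CPM in controls and 16.8, 39.4 and 31.8 CPM in OA-AP. OA-AP 1 and 3 lay below all controls and OA-AP 2 lay within their range, and the log2 fold change of −0.44 ± 0.31 did not pass (adjusted p = 0.305).

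Of the 4 resident markers, 2 rose and 1 fell in adipose tissue. Mrc1 (ENSMUSG00000026712, chr2:14229392-14332057, plus strand), the mannose receptor CD206 that takes up glycoproteins and collagen fragments, had 109, 143 and 99.4 CPM in controls and 209, 252 and 351 CPM in OA-AP. Every OA-AP library was well above every control. The log2 fold change was 1.21 ± 0.22 (adjusted p = 0.00688), 2.31-fold higher, with values from 0.98 to 1.38 when single libraries were left out.

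Cd163 (ENSMUSG00000008845, chr6:124304656-124330527, plus strand), the scavenger receptor for haemoglobin bound to haptoglobin, measured 83.6, 88.5 and 79.7 CPM in controls and 117, 170 and 198 CPM in OA-AP. The controls lay close together and all OA-AP libraries lay above them, with OA-AP 1 nearest. On the log2 scale the change was 0.95 ± 0.19 (adjusted p = 0.00823), 1.93-fold higher, and 0.78 to 1.14 with single libraries left out.

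Timd4 (ENSMUSG00000055546, chr11:46810800-46844332, plus strand) was the member with the largest fold difference in adipose tissue. It had 3.84, 7.88 and 5.34 CPM in controls and 1.35, 0.914 and 2.37 CPM in OA-AP, from 104 to 186 counts per control and 19 to 47 counts per OA-AP library. All OA-AP libraries lay below all controls. The log2 fold change was −1.88 ± 0.41 (adjusted p = 0.0119), 3.67-fold lower, and −1.57 (adjusted p = 0.0326) without control 2, which held its highest level.

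Lyve1 (ENSMUSG00000030787, chr7:110850607-110863239, minus strand), a hyaluronan receptor, was not called. It measured 64.5, 83.2 and 71.5 CPM in controls and spread from 52.9 through 83.1 to 111 CPM in OA-AP 1 to 3, around the control range on both sides. This was a log2 fold change of 0.17 ± 0.26 (adjusted p = 0.626).

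Markers of lymphatic endothelium, which shares Lyve1 and Mrc1, did not move one way: of 6 tested, Prox1, its defining transcription factor, and Ccl21a, its chemokine for dendritic cells, fell and Pdpn, which fibroblasts and mesothelium also express, rose. Prox1 went from 2.79 ± 0.787 to 1.00 ± 0.716 CPM (mean ± SD of 3 libraries per group), which is −1.46 on the log2 scale (adjusted p = 0.0468), a call lost without any 1 of control 1, 2 or 3 or OA-AP 1 or 3 (adjusted p 0.0851 to 0.133), while 4 genes of the list fell without OA-AP 2. The list's summed level was 132 to 143 CPM in controls and 174 to 217 CPM in OA-AP, and no gene of it was at 0 in a whole group. Within this sum Pdpn went from 37.1 ± 7.15 to 132 ± 34.5 CPM and Ccl21a from 37.7 ± 8.21 to 13.9 ± 4.44 CPM. Of all tested genes in adipose tissue, 12.1% were upregulated and 13% downregulated. The part of lymphatic endothelium in the levels of Lyve1 and Mrc1 was not tested.

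None of the 3 lipid-associated markers was called in adipose tissue by edgeR, none had an unadjusted p below 0.05 and DESeq2 called none. Trem2 (ENSMUSG00000023992, chr17:48346401-48354147, plus strand), the lipid-sensing receptor that signals through TYROBP, measured 10.8, 7.37 and 8.37 CPM in controls and 8.45, 8.46 and 7.12 CPM in OA-AP. The groups overlapped and differed by −0.15 ± 0.18 on the log2 scale (adjusted p = 0.55). Cd9 (ENSMUSG00000030342, chr6:125460266-125494791, minus strand), a tetraspanin of the cell surface, had 38.9, 37.3 and 46.9 CPM in controls and 42.5, 50.9 and 39.9 CPM in OA-AP. These ranges also overlapped, with a log2 fold change of 0.11 ± 0.13 (adjusted p = 0.519) that became −0.034 with library totals alone. Exons of Cd9 overlap Gm26728 on the opposite strand, which unstranded counting could not separate.

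Gpnmb (ENSMUSG00000029816, chr6:49036546-49070929, plus strand), a lysosomal glycoprotein of lipid-laden phagocytes, had widely spread OA-AP libraries. It measured 39.2, 44.7 and 26.6 CPM in controls against 10.1, 61.1 and 21.7 CPM in OA-AP. OA-AP 1 and 3 lay below all controls and OA-AP 2 above all of them. The log2 fold change was −0.25 ± 0.60 (adjusted p = 0.767) and −1.20 (adjusted p = 0.0521) without OA-AP 2.

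Compared per kilobase of gene length, Cd68 was the highest member in adipose controls at 48.3 ± 9.56 CPM per kb (SD, n = 3) and stood apart from the next. Csf1r (28.7 CPM per kb), Lyve1 (25.0), Cd9 (20.1), Mrc1 (18.4), Cd163 (15.4) and Adgre1 (12.3) followed, and among these the mean ± SD ranges of neighbours overlapped. Gpnmb (5.65), Timd4 (2.62) and Trem2 (1.79 CPM per kb) were lowest, and of these only Timd4 and Trem2 overlapped. In OA-AP the order began with Cd68 (75.0 ± 17.2 CPM per kb), followed by Mrc1 (42.4 ± 11.5) and Cd163 (29.6 ± 7.52), while Csf1r was the sixth (16.4 ± 4.07) and Timd4 was last (0.711 ± 0.345 CPM per kb). Cd68 was apart from Mrc1 and Trem2 from Timd4, and all other neighbours overlapped.

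**Figure D2:**
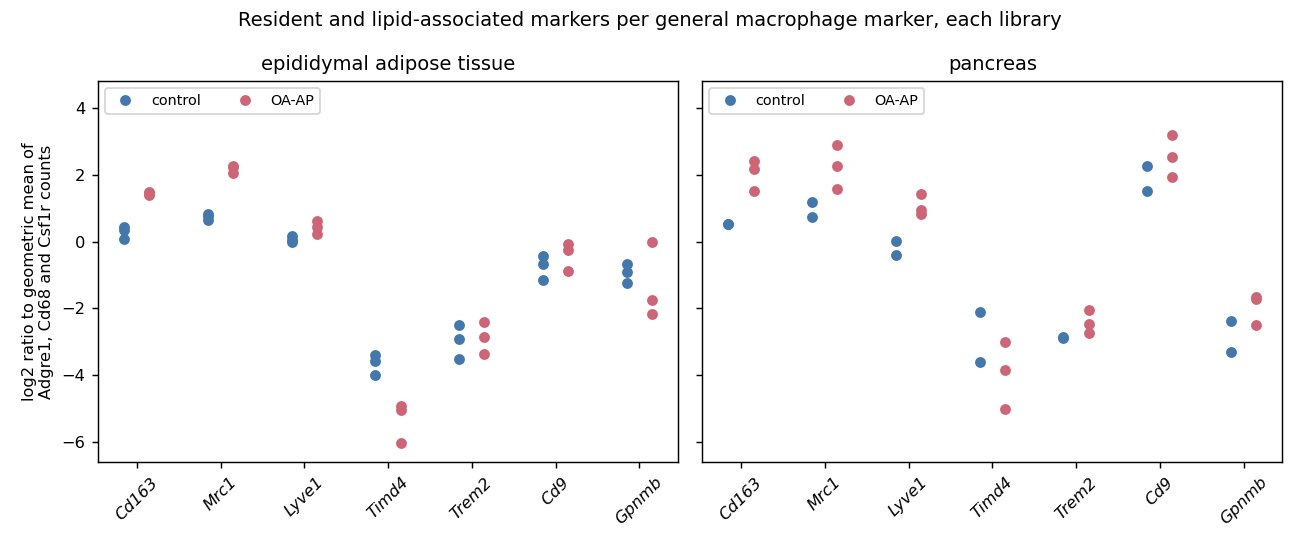
Log2 ratio, within each library, of each resident or lipid-associated marker to the geometric mean of Adgre1, Cd68 and Csf1r counts, in adipose tissue (left) and pancreas (right). Points are single libraries, blue for control and red for OA-AP. Cd163 and Mrc1 lie higher in all OA-AP libraries than in all controls of both tissues.

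A ratio within a library does not depend on how libraries are scaled. Relative to the geometric mean of the 3 general markers, Mrc1 was 1.43 higher on the log2 scale in adipose OA-AP (2.17 ± 0.119 against 0.75 ± 0.0855, SD) and Cd163 was 1.15 higher (1.43 ± 0.0455 against 0.28 ± 0.181). Lyve1 was 0.35 higher and Timd4 differed by −1.67 (−5.33 ± 0.608 against −3.66 ± 0.312), again with no overlap between groups. The ratios of Trem2, Cd9 and Gpnmb differed by 0.11, 0.35 and −0.36 with overlapping groups, and with Csf1r alone as denominator that of Gpnmb became 0.24. These are descriptions without a test, and the share of all genes without overlap is not given here.

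In pancreas the same markers were far less abundant, and Csf1r alone was called, downregulated in OA-AP. The members summed to 26.0 and 49.4 CPM in the controls and 41.7 to 50.8 CPM in OA-AP, against 562 CPM or more in every adipose library, on scales set apart for each tissue. Timd4 and Trem2 were below the count filter, so 8 of 10 members were tested, 1 was downregulated and 0 were upregulated by edgeR. Of all 12884 tested genes, 29.8% were called, 16.2% upregulated and 13.5% downregulated. Cd163 and Mrc1 had an unadjusted p below 0.05 and DESeq2 also called 0 members upregulated. The median log2 fold change of the 8 members was 0.42 and that of all tested genes 0.04.

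Pancreas values depended on scaling. The acinar list, digestive enzyme genes and relatives, summed to 909503 CPM or more in controls and 447512 to 561585 CPM in OA-AP, and TMM factors were 0.70 and 0.79 in controls and 1.11 to 1.32 in OA-AP. With library totals alone the median of all tested genes moved by 0.71 on the log2 scale, 5843 genes were upregulated and 506 downregulated in place of 2090 and 1744, and among the members Cd163, Mrc1, Lyve1 and Cd9 were upregulated and Csf1r was no longer called. In adipose tissue that scaling moved the median by −0.15 and gave 1365 upregulated and 2885 downregulated genes in place of 1915 and 2066. The members are reported relative to the TMM scale. With library totals alone in pancreas, the falls of Gas6 (−0.58), Lgals1 (−0.49), Pik3ap1 (−0.49) and Itgb2 (−0.75), named below, were also no longer called.

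**Figure D3:**
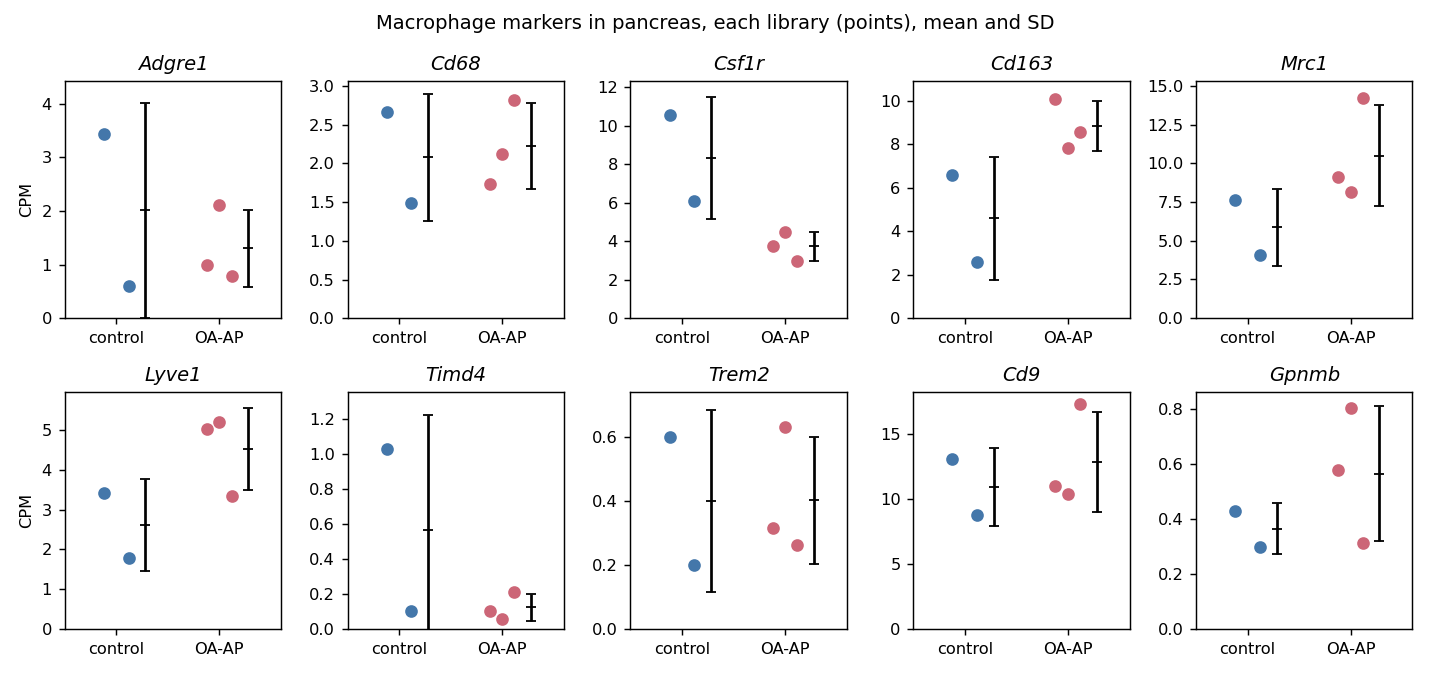
Level of each marker in the pancreas libraries, in CPM on a linear axis from 0, with other scales than in adipose tissue. Points are the 2 control (blue) and 3 OA-AP (red) libraries in replicate order, and the bar beside them is the mean ± SD, cut at 0 where it would pass below. Control 1 lies above control 2 for all 10 markers.

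Among the general markers in pancreas, Csf1r measured 10.6 and 6.08 CPM in controls 1 and 2 and 3.78, 4.46 and 2.98 CPM in OA-AP 1 to 3, from 57 to 123 counts per library. All OA-AP libraries lay below both controls. Its change was −1.16 ± 0.30 on the log2 scale (adjusted p = 0.0197), 2.23-fold lower. The call was lost without control 1 (−0.70, adjusted p = 0.232), without OA-AP 1 (−1.18, adjusted p = 0.0625) and with library totals alone (−0.46, adjusted p = 0.293).

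Cd68 had 2.66 and 1.496 CPM in pancreas controls and 1.73, 2.12 and 2.82 CPM in OA-AP, overlapping ranges with a log2 fold change of 0.09 ± 0.40 (adjusted p = 0.883). Adgre1 had 3.43 and 0.598 CPM in controls, from 40 and 6 counts, and 0.998, 2.12 and 0.784 CPM in OA-AP. The OA-AP libraries fell between the controls. The log2 fold change of −0.66 ± 0.71 (adjusted p = 0.505) became 0.013 with library totals alone and 1.11 without control 1.

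Of the resident markers in pancreas, Cd163, Mrc1 and Lyve1 had higher mean levels in OA-AP but did not pass, and Timd4 was not tested. Cd163 measured 6.61 and 2.59 CPM in controls and 10.1, 7.84 and 8.58 CPM in OA-AP, without overlap, with a log2 fold change of 0.93 ± 0.36 (adjusted p = 0.0806). Without control 1 it was called, at 1.77 (adjusted p = 0.0225), and without control 2 the value was 0.42 (adjusted p = 0.334). Mrc1 measured 7.64 and 4.09 CPM in controls and 9.14, 8.12 and 14.2 CPM in OA-AP, also without overlap. Its log2 fold change was 0.83 ± 0.34 (adjusted p = 0.0978), 1.37 (adjusted p = 0.0824) without control 1 and 0.46 (adjusted p = 0.445) without control 2.

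Lyve1 measured 3.43 and 1.79 CPM in pancreas controls and 5.04, 5.21 and 3.35 CPM in OA-AP, where OA-AP 3 lay just below control 1. The log2 fold change was 0.78 ± 0.36 (adjusted p = 0.134), and 0.90 (adjusted p = 0.0283) without OA-AP 3. It was 1.34 (adjusted p = 0.106) without control 1 and 0.40 (adjusted p = 0.534) without control 2. The lymphatic endothelium list gave 0 calls among 4 tested genes by edgeR and DESeq2, with 2 at an unadjusted p below 0.05, and its summed level was 5.09 and 8.07 CPM in controls and 7.84 to 11.2 CPM in OA-AP, with Ccl21a at 0 in every pancreas library. Timd4 rested on 12 and 1 counts in controls and 2, 1 and 4 in OA-AP, so a difference was not detectable at this depth.

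Of the lipid-associated markers, Cd9 was the highest member per kilobase in both pancreas groups, at 5.34 ± 1.48 CPM per kb in controls (n = 2) and 6.30 ± 1.88 in OA-AP (n = 3), and stood apart from the next member. Its levels of 13.04 and 8.77 CPM in controls and 10.97, 10.35 and 17.3 CPM in OA-AP overlapped, and the log2 fold change was 0.24 ± 0.28 (adjusted p = 0.547). Gpnmb was counted 5 and 3 times in controls and 11, 14 and 6 times in OA-AP, and its log2 fold change of 0.60 ± 0.69 did not pass (adjusted p = 0.529). Trem2 was counted 7 and 2 times in controls and 6, 11 and 5 times in OA-AP and was not tested.

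Within pancreas libraries the ratio of Cd163 to the general markers was 1.51 higher in OA-AP on the log2 scale, that of Mrc1 1.29 higher and that of Lyve1 1.26 higher, each without overlap between 2 controls and 3 OA-AP libraries. The ratios of Cd9 and Gpnmb were 0.66 and 0.89 higher with overlapping groups. Those of Timd4 and Trem2, which were below the count filter, differed by −1.10 with overlap and by 0.44 without overlap, from 1 to 12 counts per library. Among the general markers in the ratio, Csf1r was called lower in OA-AP (−1.16) and Adgre1 rested on 6 to 40 counts. The log2 fold changes of Cd163, Mrc1 and Lyve1 themselves were smaller (0.93, 0.83 and 0.78) and not called. These are descriptions without a test, as above. The share of all genes that separate between 2 controls and 3 OA-AP libraries is not given here.

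**Figure D4:**
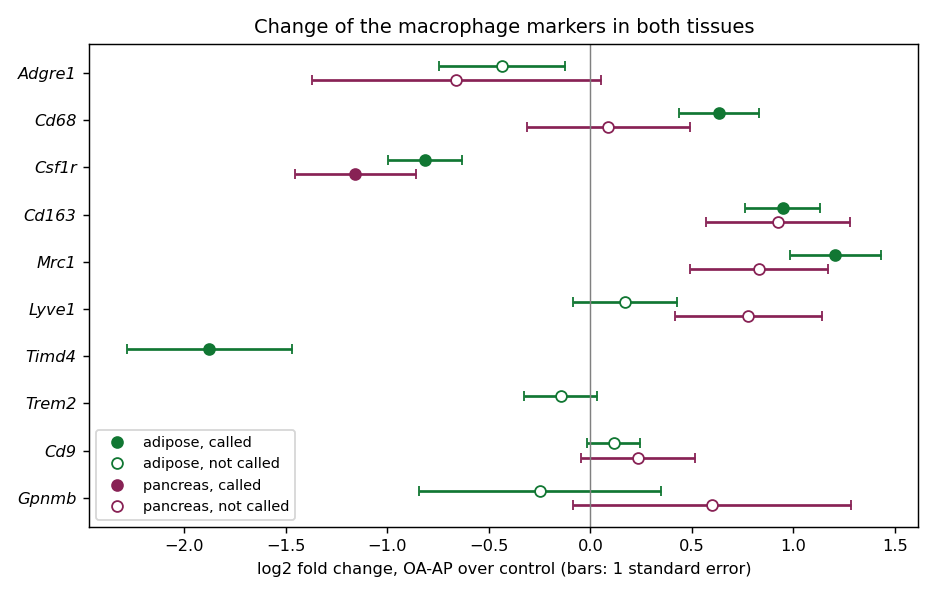
Log2 fold change of each marker in OA-AP over control, with bars of 1 standard error, in adipose tissue (green) and pancreas (purple). Filled points passed the test and open points did not, and Timd4 and Trem2 were not tested in pancreas. Csf1r lies below 0 in both tissues and is the 1 marker called in both.

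Whether the 2 tissues responded differently was tested directly as a tissue by condition term over all 11 libraries, which were treated as independent. The labels do not say whether adipose and pancreas libraries of one number come from the same mouse. By edgeR 0 of the 10 members differed, against 20.6% of 17046 genes, of which 10.4% had a change in adipose tissue above that in pancreas and 10.2% a change below it. DESeq2 called 0 members, and 0 had an unadjusted p below 0.05. The adipose minus pancreas log2 difference ranged from −0.84 ± 1.503 for Gpnmb to 0.55 ± 0.41 for Cd68, whose adjusted p of 0.395 was the smallest. For Csf1r it was 0.34 ± 0.35 (adjusted p = 0.541), for Cd163 0.02 ± 0.42 and for Mrc1 0.37 ± 0.44. These errors leave room for sizeable differences between tissues.

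The ligands and regulators around Csf1r were read as a list of 10 genes. In adipose tissue 6 of 9 tested rose and 0 fell by edgeR, against 12.1% of all tested genes upregulated and 13% downregulated. The list's median log2 fold change was 0.86, and DESeq2 gave the same counts. Csf1, the ligand that sustains macrophages, went from 79.3 ± 18.7 to 359 ± 129 CPM (mean ± SD of 3 libraries per group), which is 2.18 ± 0.31 on the log2 scale (adjusted p = 0.00307). The other ligand, Il34, measured 19.4 and 20.7 CPM and was not called (0.09 ± 0.20, adjusted p = 0.739). The other genes that rose were Etv5, Runx1 and Spi1, which encodes PU.1 (0.73 ± 0.22, adjusted p = 0.0365), together with Csf2rb and Cebpb. Csf2rb, the signalling chain of the GM-CSF receptor, rose by 1.87 (adjusted p = 0.000402) and Cebpb, a transcription factor of myeloid cells and adipocytes, by 1.51 (adjusted p = 0.000814).

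In pancreas, 16.2% of all tested genes were upregulated and 13.5% downregulated. From that list 4 of 8 tested genes rose and 0 fell, and DESeq2 gave the same counts. The count was 2 without control 1 or OA-AP 1 and 1 without control 2. Cebpb rose by 2.19 ± 0.30 on the log2 scale (adjusted p = 0.00157), and the others were Etv5, Csf2ra and Spi1 (1.31 ± 0.43, adjusted p = 0.0467). Csf1 measured 4.37 and 3.83 CPM and was not called (−0.19 ± 0.26, adjusted p = 0.602), and its change differed between the tissues (adipose minus pancreas 2.35 ± 0.43, adjusted p = 0.00325).

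Genes of the resident programme beyond the members were mixed in adipose tissue: of 25 tested, 2 rose and 4 fell, with a median of −0.32. This share lay close to the 25.1% of all tested genes called. Cd5l, a secreted protein of peritoneal and liver macrophages, fell by 2.69 on the log2 scale, from 8.12 to 1.26 CPM (adjusted p = 0.00855), and Fcgrt, the neonatal Fc receptor, fell by 0.66 (adjusted p = 0.00856). Fcna, a ficolin that binds sugars on microbes, fell by 1.24 (adjusted p = 0.0188). Ednrb and F13a1 were the genes that rose, Gas6 was the other that fell, and F13a1 and Gas6 were not called without control 2. Folr2, a folate receptor of perivascular macrophages, was not called (−0.50 ± 0.26, adjusted p = 0.18). The number that rose was 0 without control 1, control 3 or OA-AP 3, and the number that fell was 1 without control 3.

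In pancreas 2 of 19 tested resident genes rose and 3 fell, with a median of −0.12, a share near the 29.8% of all tested genes. Mertk, a receptor for the uptake of dying cells, fell by 1.88 on the log2 scale (adjusted p = 0.00431) and its ligand Gas6 fell by 1.28 (adjusted p = 0.000655). The Mertk call was lost without control 1 (−1.76, adjusted p = 0.0535), and without that library 1 gene of the list fell. The third gene that fell was Igf1, and the genes that rose were Ednrb and Selenop. Selenop, a secreted selenium carrier, rose by 0.88 (adjusted p = 0.00611), a call lost without control 2 (0.70, adjusted p = 0.0952), when 0 genes of the list rose.

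Although Trem2, Cd9 and Gpnmb were not called, 9 of the 26 further genes of the lipid-associated programme rose and 2 fell in adipose tissue, with a median of 0.20, against 12.1% of all tested genes upregulated and 13% downregulated. Spp1, which encodes osteopontin, was counted 16 to 29 times in controls and 660 to 1723 times in OA-AP, 0.862 ± 0.345 against 63.4 ± 29.2 CPM, a log2 fold change of 6.22 ± 0.51 (adjusted p = 0.000614). Msr1, a scavenger receptor for modified lipoprotein, rose by 2.56 ± 0.26 (adjusted p = 0.00109) and Plin2, a coat protein of lipid droplets in many cell types, by 1.22 ± 0.13 (adjusted p = 0.0012). Among the genes that fell was Lpl, the lipoprotein lipase that adipocytes also make, by 0.95 (adjusted p = 0.00355), and the other was Dcstamp, a fusion protein of osteoclasts and giant cells. The number that fell was 1 without control 1, 2 or 3 or OA-AP 1 or 3.

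In pancreas 4 of 21 tested genes of this programme rose and 3 fell, near the 29.8% of all tested genes called, with a median of 0.34, and 2 rose without control 2. Plin2 rose by 4.29 ± 0.47 (adjusted p = 0.00129), from 2.22 to 43.6 CPM. Msr1 rose by 2.42 ± 0.53 (adjusted p = 0.0105), a call lost without control 2 (1.93, adjusted p = 0.0881). Lpl fell by 1.73 (adjusted p = 0.00161) and Lgals1, a galectin, fell by 1.20 (adjusted p = 0.00109). Ctsl and Abca1 were the other genes that rose, and Acp5 the other that fell. Spp1 was not called in pancreas (0.30 ± 0.46, adjusted p = 0.653).

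Of 12 genes around TREM2 signalling, 2 rose and 0 fell in adipose tissue, Tfec and Tyrobp, a share below the 25.1% of all tested genes called. Tfec, a transcription factor of the MiT family, rose by 3.10 ± 0.41 (adjusted p = 0.00222). Tyrobp, the adaptor of TREM2 and of several other myeloid receptors, went from 32.5 ± 6.83 to 49.3 ± 7.99 CPM (0.60 ± 0.18, adjusted p = 0.0343). The Tyrobp call was lost without control 1 or 3 or OA-AP 1 or 3 (adjusted p 0.0719 to 0.103) and with library totals alone (0.45, adjusted p = 0.0793). In pancreas 2 of 10 rose, both of them sheddases that cut TREM2 among many other substrates, Adam17 (0.72 ± 0.18, adjusted p = 0.0166) and Adam10 (0.73 ± 0.23, adjusted p = 0.0428), and Pik3ap1, an adaptor of PI3-kinase, fell by 1.20 (adjusted p = 0.00187), together about the 29.8% of all tested genes. Neither sheddase was called without control 1 or control 2, Adam10 also lost its call without OA-AP 1 or OA-AP 3, and Tyrobp was not called (0.18 ± 0.68, adjusted p = 0.864).

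Markers of other myeloid cells were read as lists, against 12.1% of all tested genes upregulated and 13% downregulated in adipose tissue. In adipose tissue 5 of 15 pan-myeloid genes rose and 0 fell, Msr1, Fcer1g, Cd14, Fcgr1 and Itgam, the integrin CD11b (1.24 ± 0.11, adjusted p = 0.000537), whereas Ptprc, the leukocyte antigen CD45, was not called (−0.14 ± 0.30, adjusted p = 0.735). Of 19 genes of recruited monocytes and inflammatory macrophages 10 rose and 0 fell. Their summed level was 1085 to 1578 CPM in controls and 2116 to 2722 CPM in OA-AP. DESeq2 called 13 of them upregulated, and edgeR called 7 to 14 upregulated with single libraries left out. Chil3, a chitinase-like protein (5.40 ± 0.58, adjusted p = 0.00144), Arg1, arginase (4.35 ± 0.52, adjusted p = 0.00193), and Vcan, versican (2.65 ± 0.22, adjusted p = 0.000537), rose most clearly by p. The defining monocyte genes Ly6c2 (1.98 ± 0.66, adjusted p = 0.0549) and Ccr2 (0.81 ± 0.27, adjusted p = 0.0542) did not pass by edgeR. DESeq2 called both (adjusted p = 0.0388 and 0.0104), as did edgeR without OA-AP 2 (adjusted p = 0.0158 and 0.00087), and without control 2 Ly6c2 was called (2.73, adjusted p = 0.0278) and Ccr2 was not (0.91, adjusted p = 0.0769). Their part in the changes of the members was not tested.

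Neutrophil genes summed to 18.0 to 36.6 CPM in adipose controls and 217 to 236 CPM in OA-AP, and 7 of 8 tested rose. This and the counts below compare with 12.1% of all tested genes upregulated and 13% downregulated. S100a8, which encodes a calcium-binding protein of neutrophils and monocytes, went from 1.35 ± 0.573 to 34.2 ± 2.90 CPM (4.65 ± 0.28, adjusted p = 0.00022). Dendritic cell genes fell for 3 of 8 tested (Xcr1, Itgae and Siglech) and lymphocyte genes for 4 of 6 (Ncr1, Ms4a1, Cd79a and Cd3e), with summed levels of 53.9 to 74.9 against 45.1 to 60.7 CPM and of 8.23 to 30.5 against 1.97 to 3.94 CPM. Without control 2 these counts were 2 and 3, since Siglech and Cd3e were no longer called, and the number of lymphocyte genes that fell was 1 without OA-AP 2 and 2 without control 3, OA-AP 1 or OA-AP 3. Of 8 adipocyte genes Lep rose and Plin1 and Cfd fell, where the Lep call was lost without any 1 control and the Cfd call without any 1 library other than OA-AP 1. Adiponectin (Adipoq), the classical adipocyte product, was not called (−0.26 ± 0.16, adjusted p = 0.221). Blood endothelium and mesothelium gave 0 calls among 6 tested each by edgeR and DESeq2 (2 each at an unadjusted p below 0.05). Without OA-AP 1 edgeR called 3 mesothelium genes downregulated and 1 blood endothelium gene upregulated, and without OA-AP 2 it called 1 blood endothelium gene downregulated. By either tool 0 of 3 tested acinar genes were called, 2 of them at an unadjusted p below 0.05. No gene of the neutrophil, dendritic cell or lymphocyte lists was at 0 throughout an adipose group, and the part of these cells in the members' levels was not tested.

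In pancreas 1 of 14 pan-myeloid genes rose, Msr1, and 1 fell, Itgb2, a leukocyte integrin chain (−1.42 ± 0.42, adjusted p = 0.0361), a call lost without control 1, control 2 or OA-AP 1 (adjusted p 0.106 to 0.166). Itgam was not called (1.32 ± 0.55, adjusted p = 0.0978), and all OA-AP libraries lay above both controls. It was called upregulated with library totals alone and with no filter on low counts. Of all tested genes, 16.2% were upregulated and 13.5% downregulated. Of 13 tested monocyte and inflammatory genes 4 rose and 1 fell. The list's summed level was 37.2 and 50.5 CPM in controls and 91.2 to 241 CPM in OA-AP. Ccr2 was not called (0.85 ± 0.38, adjusted p = 0.122), also without overlap between groups. Genes without a call can separate in this way, and the share of all genes that do is not given here. Saa3, an acute-phase protein, rose by 5.62 ± 0.56 (adjusted p = 0.00047). The other genes that rose were Ccl7, Vcan and Thbs1, and Cx3cr1, the fractalkine receptor, fell by 2.94 (adjusted p = 0.0417). DESeq2 called 8 upregulated and 1 downregulated. Leaving out control 1 left 2 that rose and control 2 left 1, and without OA-AP 3 there were 6. The Cx3cr1 call was lost without control 1, control 2 or OA-AP 2. Arg1, Nos2 and Treml4 were at 0 in both controls.

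The 7 tested neutrophil genes gave 0 calls in pancreas by edgeR, 1 at an unadjusted p below 0.05 and 6 upregulated by DESeq2, and edgeR called 3 upregulated without OA-AP 2 and 1 without OA-AP 3. These counts and those below compare with 16.2% of all tested genes upregulated and 13.5% downregulated. S100a8 was not called by edgeR (5.19 ± 2.28, adjusted p = 0.156) and was called by DESeq2 (5.18, adjusted p = 0.0184). The neutrophil list summed to 1.89 and 2.89 CPM in controls and to 15.5, 5.09 and 114 CPM in OA-AP 1 to 3. OA-AP 3 therefore stood far above the others. The same library had the highest Cd68, Mrc1 and Cd9 levels of the OA-AP group, and without it their log2 fold changes were −0.17, 0.49 and −0.088. Of 1 tested dendritic cell gene 0 were called, 0 lymphocyte genes could be tested, and mesothelium gave 0 calls among 6 by edgeR (2 at an unadjusted p below 0.05, 1 called by DESeq2), but 2 downregulated without OA-AP 3 and 1 upregulated without OA-AP 2. Blood endothelium fell for Emcn (−1.59) and Kdr (−0.76) of 6 tested. Neither was called without OA-AP 1 or with library totals alone (Emcn −0.90, adjusted p = 0.0853, and Kdr −0.039, adjusted p = 0.896). Without control 2 their values were −1.50 and −0.31. Of the adipocyte list only Lipe and Pnpla2 could be tested, and both rose. Adipoq, Plin1, Lep and Cfd had at most 4 counts in any pancreas library. Acinar genes rose for 5 and fell for 16 of 30. The part of these cells in the pancreatic values of the members was not tested.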

How the data were processed

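Total RNA of adipose tissue and pancreas was sequenced in 11 libraries. According to the submitters' processing notes and the paper's methods, the authors trimmed reads with Trim Galore 0.6.6, ran quality control with fastp 0.20.1, aligned them to GRCm38 with STAR and assigned them to genes with featureCounts 2.0.1. The authors deposited raw counts per gene, 1 table per tissue, without normalization. The annotation release and the strand setting are not given in the sources used here. The pancreas table also holds the gene length that the authors deposited, used here for levels per kilobase. Comparison columns of the authors were not used.

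Samples were grouped by their titles. Adipose rows took the symbol that the pancreas table gives for the same gene identifier. Low genes were removed with filterByExpr, libraries were scaled with TMM within a tissue, and each tissue was fitted alone with the robust quasi-likelihood test of edgeR 4.0.16 in R 4.3.3. The tissue by condition term was fitted over all libraries and the genes of both tables. Genes were called at a Benjamini-Hochberg adjusted p of 0.05 and a 1.5-fold change, both taken from the study's methods. Standard errors are the absolute log2 fold change over the square root of F. Ratios added 0.5 to each count. The main edgeR fits and the DESeq2 fits were checked on simulated counts, for each tissue and for the tissue by condition term. Other steps were not part of that check.

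The 10 members and the gene lists (6 of companion genes, 8 of other cell types) were chosen with earlier results of these data known, and the list tests are counts only. The text names all members, up to 3 called genes with the smallest p per list and tissue, and 12 genes whatever their values. Exceptions are Il1r2 and Mmp8 (neutrophil list, adipose tissue) and Reg2, Reg3a and Reg3b (acinar list, pancreas), whose changes are not given. Of the 12, Il34, Ly6c2 and Adipoq were below the count filter in pancreas. Further called genes of short lists, Lpl in adipose tissue and genes at 0 were named after their values were seen. Spink3 of the acinar list was not analysed here, and 2 genes of the other lists are not reported here.

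Alternatives were DESeq2 1.42.0, DESeq2 size factors within edgeR, scaling by library totals, TMM factors without acinar genes, no filter or at least 10 counts in every library, a fold of 2 or none, a replicate block, each library left out, a pseudocount of 2 and Csf1r alone as denominator. Deviations from group means of same-numbered libraries correlated at −0.175 to 0.0536 between conditions and −0.0633 to 0.123 between tissues, so the numbers were not used as pairs. No 2 libraries held identical values, and the smallest chi-square per degree of freedom between replicates was 6.91. Counting error grows at low counts, which limits the pancreas most.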

Additional observations from a re-analysis of the deposited data

Results flagged for a closer look

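The rule for named genes singled out companion and other cell type genes, of which those tested in each tissue alone are considered here. Of these, 11 had a change in OA-AP that differed between adipose tissue and pancreas by edgeR's test of the tissue by condition term. Each is given as the adipose minus the pancreas log2 fold change. The difference was positive for Spp1 (5.90), Csf1 (2.35), Itgb2 (1.81), Emcn (1.66), Mertk (1.52), Pik3ap1 (1.26) and Lgals1 (1.09). It was negative for Plin2 (−3.09), Pnpla2 (−2.33), Lipe (−1.71) and Selenop (−1.06). Their adjusted p ranged from 0.000577 for Spp1 to 0.0427 for Mertk. Of all 17046 genes tested for this term, 20.6% were called. Apart from the genes named whatever their values, named genes were chosen for a small p in either tissue. That choice favours a difference between tissues in these same data. The count of 11 therefore cannot be compared with that share, and the number of genes considered is not given here. The 10 macrophage markers were not part of this selection, and 0 of them were called for this term. The term was also called for Reg3a, Reg3b and Cd79a, which are not counted here. Reg3a and Reg3b were not tested in adipose tissue alone, and Cd79a was not tested in pancreas alone.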

How the results depend on the processing

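In adipose tissue the directions of Mrc1, Cd163, Cd68, Csf1r and Timd4 held under every alternative run. A fold change of 2 left 1 member upregulated and 1 downregulated, with 1001 and 1227 of all genes, and no fold threshold gave 3065 genes upregulated. Without 1 library, 1308 to 2335 genes were downregulated. In pancreas, library totals alone gave 4 members upregulated and 0 downregulated (5843 and 506 of all genes), no filter on low counts gave 2 upregulated members, and a fold change of 2 gave 1291 upregulated genes. Without 1 pancreas library, 833 to 2208 genes were upregulated and 662 to 2142 downregulated, fewest without control 2, and 0 to 1 members were called in each direction.

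For the difference between tissues, library totals alone gave 374 genes above and 6153 below with 2 members below, a fold change of 2 gave 1159 above, and leaving out 1 library gave 1179 to 1842 above and 1153 to 1920 below. The replicate block gave 1063 above and 1093 below, 2 members upregulated in pancreas (Cd163 and Lyve1), and took the call from Cd68 in adipose tissue (0.63, adjusted p = 0.0671). Under this block Cd68 (−0.10), Cd9 (−0.022), Ptprc (−0.49), Spp1 (−0.31) and Tyrobp (−0.73) turned direction in pancreas. The numbers were not taken as pairs, since not every pair correlated and the labels do not say what a number shares.

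Other turns of direction concerned genes that were not called. With library totals alone these were Adgre1 (0.013), Csf1 (0.51) and Folr2 (0.38) in pancreas and Cd9 (−0.034) and Il34 (−0.051) in adipose tissue. With single libraries left out, values in pancreas spanned −1.40 to 1.11 for Adgre1, −0.25 to 0.58 for Cd68, −0.088 to 0.56 for Cd9, −0.74 to 0.41 for Folr2, −0.073 to 0.51 for Prox1, −0.54 to 0.71 for Ptprc, −0.35 to 0.55 for Spp1 and −0.81 to 0.77 for Tyrobp. In adipose tissue they spanned −0.10 to 0.42 for Lyve1, −0.25 to 0.034 for Trem2, −1.20 to 0.18 for Gpnmb, −0.17 to 0.25 for Il34 and −0.38 to 0.19 for Ptprc.

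With library totals alone the mean pancreas OA-AP levels were 4.59 CPM for Csf1r, 10.8 CPM for Cd163 and 5.59 CPM for Lyve1. With Csf1r alone as denominator the log2 ratio differences in adipose tissue were 1.75 for Cd163, 2.03 for Mrc1, 0.95 for Lyve1, −1.07 for Timd4, 0.71 for Trem2, 0.95 for Cd9 and 0.24 for Gpnmb, which turned direction, and in pancreas 2.19, 1.97, 1.94, 1.34 and 1.57 for Cd163, Mrc1, Lyve1, Cd9 and Gpnmb. The cause of these shifts was not tested. Pancreas values of Adgre1, Gpnmb, Timd4 and Trem2 rest on few counts, and with 2 controls a single library decided several calls.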
